A study of Sus scrofa with 4 samples.

Results

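The dorsal hippocampus of untreated piglets was compared with their ventral hippocampus by small RNA sequencing, with 1 library for each region. The members are these 2 libraries, out of 4 in the series, and they were taken by their labels. All libraries come from Rongchang piglets, a Chinese pig breed, of wild-type genotype. Per the labels' protocols, 8 newborn littermates were divided into 4 controls, which were not injected, and 4 piglets given intramuscular iron dextran (200 mg), a supplement of iron bound to sugar polymer, on days 3 and 4 of life. The 2 iron libraries, again ventral and dorsal, serve here as a second look at the same pair of regions. Before RNA extraction, each region's tissue was pooled within a group. Neither the number of piglets in a pool nor the age at which tissue was taken is stated. Each region of each group is therefore 1 pooled sample without a replicate, the spread between piglets was not measured, and no p-value is given. Every ratio below compares 2 libraries, not 2 conditions.

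A miRNA is a short RNA cut from a hairpin precursor, and either arm of the hairpin (5p or 3p) can persist. Loaded into an Argonaute protein, it pairs with messenger RNAs mainly through its seed, bases 2 to 8, and lowers their translation and stability. The dorsal hippocampus is best known for spatial memory and the ventral hippocampus for its links to the amygdala and hypothalamus in emotion and stress responses. The 2 poles hold the same main cell types. The hippocampus borders on the ventricle with its ependyma and choroid plexus. The regions are defined by messenger RNA markers and by anatomy, and the files used here hold miRNAs only, so the dorsal and ventral labels could not be checked against defining markers. Brain identity could: miR-9 and miR-124a, which are hallmarks of neural tissue, were among the 5 most abundant miRNAs in both libraries.

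The sequences below belong to the miRNAs on which the comparison turns, and are shown so that shared seeds can be seen. They were read from the authors' deposited table of conserved sequences, which held a pig entry for 282 of the 321 annotated miRNAs and for 223 of the 251 measured ones. The seed stands in capitals, 5′ to 3′. The first 3 are the miR-183 cluster, lower in the control dorsal library. The seeds of miR-96-5p and miR-182 are equal in 6 bases and differ in 1, as do those of miR-183 and miR-96-5p.
miR-183: uAUGGCACugguagaauucacug
miR-96-5p: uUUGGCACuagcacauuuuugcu
miR-182: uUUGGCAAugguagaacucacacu
The next pair belongs to the mir-8 family, better known as miR-200, which was also lower in dorsal. Pig entries for them were not in the table, so the bovine miR-200a and the rat miR-200b entries are given.
miR-200a: uAACACUGucugguaacgauguu
miR-200b: uAAUACUGccugguaaugaugac
The remaining miRNAs lower by the largest factors were miR-452 and miR-1249.
miR-452: aACUGUUUgcagaggaaacuga
miR-1249: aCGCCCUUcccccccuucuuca
On the higher side stood miR-146b, shown with miR-146a-5p, which has the same seed, and miR-340.
miR-146b: uGAGAACUgaauuccauaggc
miR-146a-5p: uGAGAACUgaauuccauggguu
miR-340: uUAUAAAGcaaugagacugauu

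Most miRNAs were present at similar levels in dorsal and ventral hippocampus of control piglets. Levels are given in CPM, reads per 1000000 after scaling of the libraries. Only miRNAs with 10 CPM or more in some library count as measured. Of 251 measured miRNAs 125 were higher and 126 lower in the control dorsal library, and 184 of them (73.3%) lay within 1.25-fold of equal levels. The log2 ratio of dorsal to ventral had a median of -0.004, an SD of 0.40 across miRNAs and an interquartile range of -0.19 to 0.19. Depth was ample: 13839556 annotated reads for ventral and 12100980 for dorsal, so that a count of 3 reads, the limit that a count of 0 allows, equals 0.207 and 0.243 CPM. With total reads in place of TMM scaling the log2 ratios all shift by -0.04, and the split becomes 104 higher and 147 lower.

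A miRNA was called when the 2 libraries were at least 2-fold apart and 1 lay outside the 95% interval of the ratio, an exact conditional binomial (Clopper-Pearson) interval. These intervals cover counting error only, and amplified reads are not independent molecules. By this rule 1 of 251 (0.398%) was higher in dorsal and 4 (1.59%) were lower. A smaller size of 1.5-fold was met by 8 (3.19%) on the higher and 9 (3.59%) on the lower side. With total reads, or with unmerged rows, 5 were at least 1.5-fold higher, since miR-128 and both arms of miR-143 no longer reached this size. Just past the 2-fold limit was miR-1249, 2.03-fold lower, and just short of it miR-217, 1.99-fold lower. On the higher side miR-128 passed 1.5-fold with a ratio of 1.51, and miR-374b-3p at 1.485 did not. Counting error alone gives narrow intervals at this depth, since 189 of 251 intervals excluded 1. The scatter of control ventral against control dorsal levels shows both sides.

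**Figure D1:**
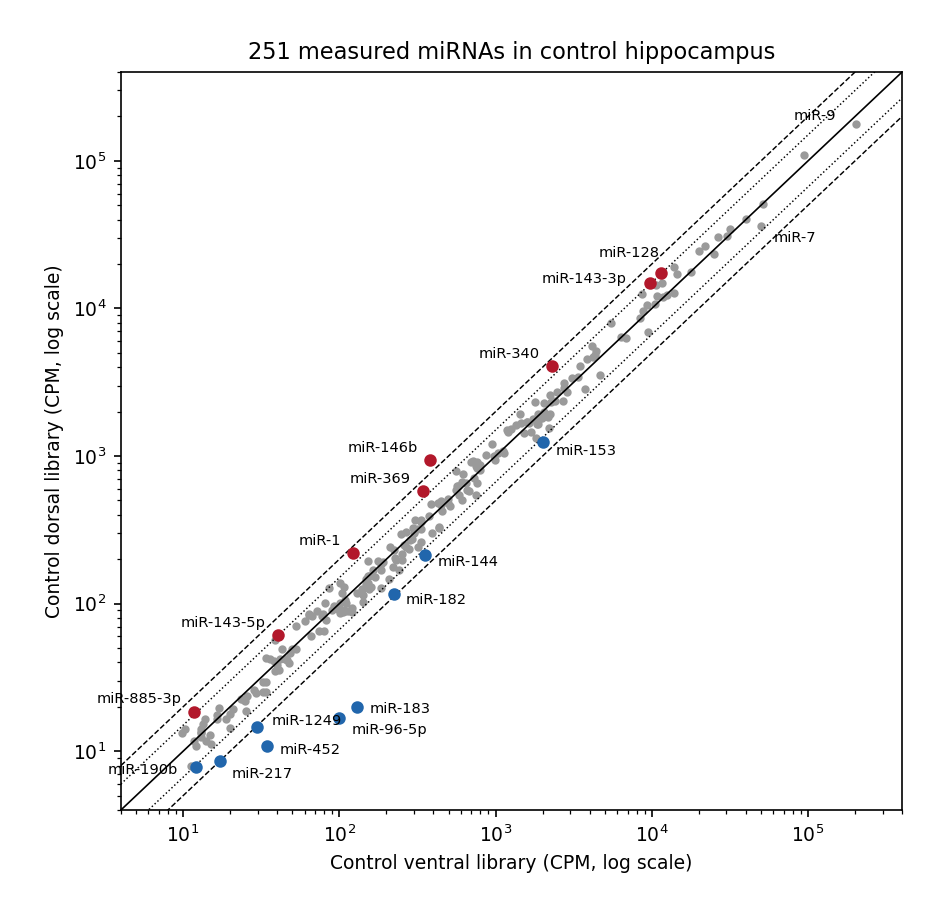
Level of each of 251 measured miRNAs in the control ventral (x) and control dorsal (y) library, both in CPM on log scales. The solid line marks equal levels, dotted lines 1.5-fold and dashed lines 2-fold. Red points are the 8 miRNAs at least 1.5-fold higher in dorsal and blue points the 9 at least 1.5-fold lower. miR-183 and miR-96-5p lie farthest below the line, and miR-146b is the point above the upper dashed line.

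The miR-183 cluster, 3 miRNAs made from neighbouring precursors and known from sensory epithelia such as retina and inner ear, was lower in dorsal as a whole. miR-183 measured 131 CPM in control ventral against 20.1 CPM in control dorsal, while the iron libraries held 16.3 CPM (ventral) and 16.1 CPM (dorsal). For miR-96-5p the values were 99.5 CPM ventral and 16.9 CPM dorsal in controls, and 13.4 and 8.92 CPM in the iron pair. In both cases control ventral is the high library. The other 3 lie between 16.1 and 20.1 CPM for miR-183 and between 8.92 and 16.9 CPM for miR-96-5p. The control ratio is 6.50-fold lower in dorsal for miR-183 (95% counting interval 5.69 to 7.45) and 5.90-fold for miR-96-5p (5.10 to 6.86). miR-182, the most abundant of the cluster, was 1.91-fold lower (1.80 to 2.04), from 222.5 to 116 CPM, with 97.6 and 113 CPM in the iron ventral and dorsal libraries. Its 3 lower libraries held 97.6 to 116 CPM, where miR-183 and miR-96-5p lay between 8.92 and 20.1 CPM, so the cluster's members do not keep a constant proportion.

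The miR-200 family, a hallmark of epithelial cells that represses the ZEB transcription factors, showed the same distribution over libraries. Its rows in the conserved table, summed as family mir-8, held 148 CPM in control ventral, 18.2 CPM in control dorsal, 16.5 CPM in iron ventral and 13.6 CPM in iron dorsal. Dorsal was 8.17-fold lower (7.12 to 9.42). The sum includes a fly miR-8 entry with 16 reads in control ventral, 12 in control dorsal and 40 in each iron library. That entry's control ratio of 0.881 (0.380 to 1.98) has an interval that includes 1, so it does not follow the family. The conserved table holds nested sequence forms with nearly equal reads, and how reads were divided between its rows is not given. Intervals of family and form sums may therefore be too narrow. The family's main seeds, shown above, differ in 1 base. The miR-200a type was 8.06-fold lower (6.78 to 9.66) and the miR-200b type 8.11-fold (6.435 to 10.3). The miR-200b type reached 10 CPM in control ventral only, at 52.6 CPM against 6.48 CPM in control dorsal. Its direction was therefore bound to be this one. The annotated pig table lists 2 miRNAs of the epithelial list, and neither reached 10 CPM. miR-429, of this family, had 4.485 CPM in control ventral against 0.243, 0.162 and 0.282 CPM in control dorsal, iron ventral and iron dorsal. miR-205, a miRNA of stratified epithelia outside this family, had 2.21 CPM ventral and 3.32 CPM dorsal in controls, so it does not follow the family.

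Some miRNAs known from tissue that adjoins the hippocampus were also higher in control ventral, by smaller factors. Whether they are confined to that tissue was not tested. miR-204, abundant in choroid plexus epithelium, measured 253 CPM ventral and 199 CPM dorsal in controls, and 178 and 164 CPM in the iron pair. The choroid plexus family mir-1298 stood at 95.9 and 71.6 CPM in controls against 101 and 50.1 CPM in iron piglets. miR-34c, a miRNA of ciliated cells such as ependyma, measured 9409 CPM ventral and 6910 CPM dorsal in controls, and the related family mir-449 207 and 166 CPM. In iron piglets miR-34c stood at 7028 and 4194 CPM and mir-449 at 181 and 90.5 CPM. Thus all 4 were 1.24- to 1.36-fold lower in control dorsal, a smaller factor than for miR-183 or miR-96-5p, and all 4 were lower in iron dorsal too. Family mir-375, of endocrine cells, went from 123 to 99.4 CPM in controls and from 86.0 to 41.6 CPM in iron piglets. Whether other tissue in the control ventral pool plays a part in any ratio of these libraries was not tested. In bulk tissue, fewer cells of a type and less RNA per cell cannot be told apart.

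The remaining miRNAs on the lower side included 2 more past 2-fold. miR-452, known from neural crest cells, was 3.17-fold lower in dorsal (2.61 to 3.86), at 34.6 CPM ventral and 10.9 CPM dorsal. In the iron pair the order was opposite, at 9.73 CPM ventral and 37.5 CPM dorsal, so control ventral and iron dorsal are the high libraries. miR-224, its neighbour in other mammals, was scarce at 0.414 and 0.324 CPM in controls. miR-1249 measured 29.7 CPM ventral and 14.6 CPM dorsal in controls, and 25.55 and 30.2 CPM in iron piglets. Here control dorsal is the 1 low library. The 2.03-fold lower value (1.71 to 2.43) rests on 430 and 180 reads.

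Between 1.5- and 2-fold lower were miR-217, miR-182, miR-144, miR-153 and miR-190b. miR-217, best known from the exocrine pancreas, had 17.1 CPM ventral against 8.59 CPM dorsal in controls, and 19.9 against 7.51 CPM in iron piglets. It is low in both dorsal libraries and high in both ventral ones. Since it reached the minimum of 10 CPM in the ventral libraries only, this order was set by the filter. The annotated miR-216, neighbour of miR-217 in many genomes, did not reach 10 CPM. It had 8.07 and 7.29 CPM in the control pair, with an interval that includes 1, against 9.73 and 1.78 CPM in iron piglets. Family mir-216 of the conserved table was measured, at 20.15 and 19.8 CPM in controls, a ratio of 0.981 (0.8245 to 1.167). In iron piglets the family had 29.9 and 8.45 CPM. miR-144, an erythroid miRNA, showed the same order as miR-217, at 355 and 212 CPM in controls and 370 and 269 CPM in iron piglets. The brain miRNA miR-153, a regulator of synaptic release, went from 2021 CPM ventral to 1244 CPM dorsal, 1.63-fold lower (1.59 to 1.66), and the iron libraries at 1376 and 1257 CPM resembled control dorsal. The scarce miR-190b had 12.01 and 7.78 CPM in controls and 9.003 and 5.35 CPM in iron piglets. It alone of the 17 reached the minimum through control ventral only, so its direction was bound to be this one.

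On the higher side miR-146b alone passed 2-fold. It dampens Toll-like receptor signalling by targeting TRAF6 and IRAK1. It measured 380.2 CPM in control ventral, 937 CPM in control dorsal, 875 CPM in iron ventral and 1019 CPM in iron dorsal, and the control ratio was 2.46 (2.39 to 2.545). Control ventral is the low library, apart from the other 3. miR-146a-5p, with the same seed but another precursor, had 147 CPM ventral and 135 CPM dorsal in controls, a ratio of 0.918 (0.860 to 0.979). The conserved table splits miR-146b into forms that differ at the 3′ end, and 4 nested forms were compared after their values were seen. The 24-nucleotide form made up 67.4% of their reads in control ventral and 73.2% in control dorsal, and each of the 4 was higher in dorsal, with ratios from 1.89 to 2.69.

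The other 7 miRNAs at least 1.5-fold higher in dorsal were of varied kinds. miR-340 went from 2310 to 4072 CPM, a ratio of 1.76 (1.74 to 1.79), with 3912 and 4165 CPM in the iron pair. miR-1, the muscle miRNA, went from 123 to 221 CPM, a ratio of 1.79 (1.69 to 1.90), with 196 and 173 CPM in the iron pair. miR-369, of the imprinted DLK1-DIO3 locus, measured 344 and 580 CPM in controls, a ratio of 1.68 (1.62 to 1.745), against 471.5 and 513 CPM. In these 3 miRNAs control ventral is again lowest. Both arms of miR-143, a miRNA of smooth muscle and pericytes, were higher by nearly the same factor: miR-143-3p by 1.52 (1.51 to 1.53), from 9720 to 14800 CPM, and the minor arm miR-143-5p by 1.51 (1.36 to 1.69), from 40.4 to 61.0 CPM. With total reads these became 1.48 and 1.47. miR-128, a neuronal miRNA that restrains excitability, had 11446 CPM ventral and 17261 CPM dorsal in controls, a ratio of 1.51 (1.498 to 1.518), with 14615 and 12740 CPM in iron piglets. With total reads its ratio was 1.47. The scarce miR-885-3p had 11.8 and 18.6 CPM in controls, and 15.3 and 12.5 CPM in iron piglets. For all 8 miRNAs of this side control ventral was the lowest of the 4 libraries, and for 6 of them control dorsal was the highest. Selection by the control ratio favours such ranks. On the lower side control ventral was the highest library for 5 of 9 and control dorsal the lowest for 3. Over all 251 miRNAs control ventral was the highest or lowest library for 139, and control dorsal for 117.

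**Figure D2:**
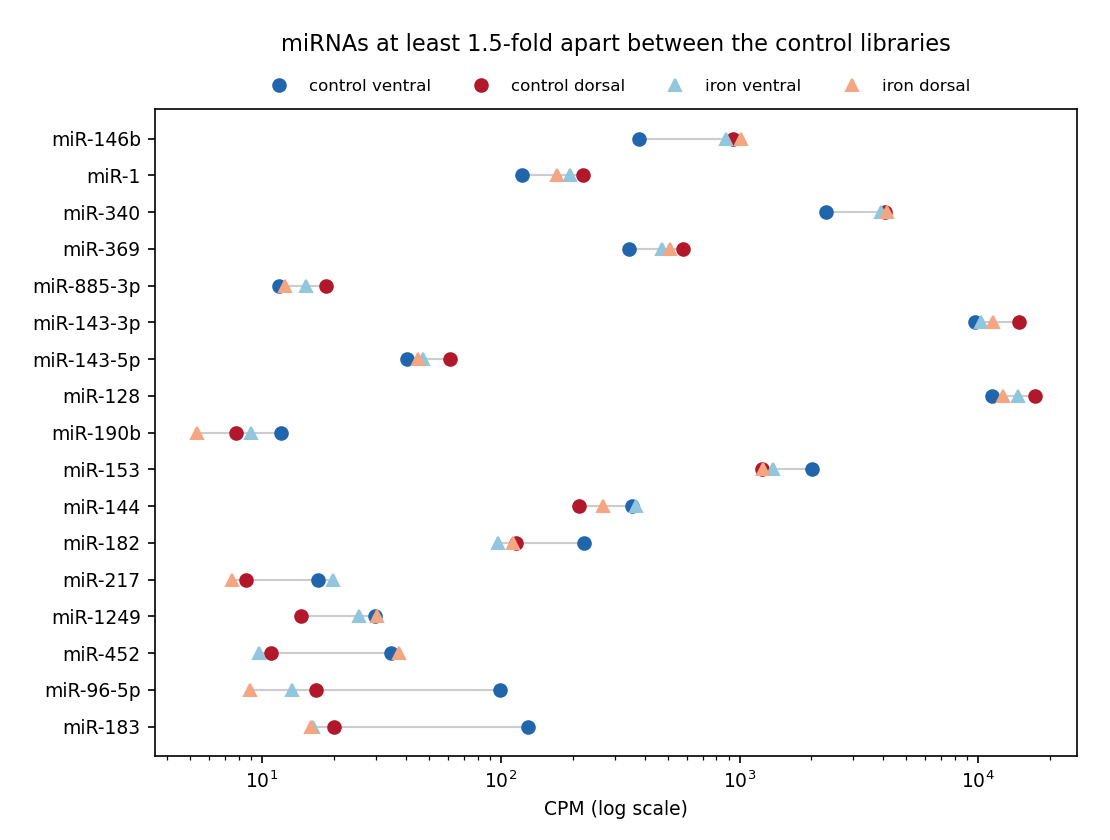
Level in CPM (log scale) of the 17 miRNAs that differed at least 1.5-fold between the control libraries, ordered by their control ratio. Circles are the control libraries and triangles the iron libraries, each 1 pooled sample; grey lines join the lowest and highest value. For miR-183 and miR-96-5p the control ventral circle stands far right of the other 3 symbols, and for miR-146b and miR-340 far left. For miR-217 the 2 ventral symbols stand right of the 2 dorsal ones.

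The most abundant miRNAs differed little. miR-9, which drives neuronal differentiation, was first in both regions with 21.22% of annotated reads in ventral (exact binomial 95% interval 21.20% to 21.24%) and 18.01% in dorsal (17.99% to 18.03%). miR-99a followed with 9.94% and 11.1%, and miR-30e-5p with 5.38% and 5.16%. miR-124a, the most neuron-specific of them, was level at 40373 and 40449 CPM. The exception was miR-7, a miRNA of neurons and endocrine cells that binds the circular RNA Cdr1as, at 49733 CPM ventral and 36339 CPM dorsal. Its iron values of 28702 and 52574 CPM run the other way. Among the 10 most abundant miRNAs, miR-9, miR-7, miR-125b and miR-30e-5p were lower in dorsal and miR-99a, miR-124a, miR-100, miR-30a-5p, miR-26a and miR-181a were higher, with ratios from 0.731 for miR-7 to 1.21 for miR-181a. The ratios of miR-124a (1.002) and miR-30a-5p (1.01) fall below 1 with total reads, and that of miR-30e-5p (0.986) rises above 1 with the authors' RPM. Of the 25 miRNAs over 10000 CPM in a control library 18 were higher in dorsal, with a median log2 ratio of 0.17. This median was -0.09 for the 70 miRNAs whose higher control value lay between 10 and 100 CPM.

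Markers of neurons and glia, taken as lists, were centred near equal levels. The neuron-enriched list had 11 measured entries of 13, with 6 higher and 5 lower and a median log2 ratio of 0.003, next to -0.004 for all miRNAs; with total reads its sign turned. Its members spread from miR-153 at -0.70 to miR-128 at 0.59, with miR-137 at 0.22, miR-218 at 0.23 and miR-138 at -0.14. Rows of miR-129b and miR-129a-5p hold nearly the same reads and amount to 1 measurement. The activity-regulated pair, whose transcription follows CREB, was split: miR-132 measured 210 and 242.5 CPM, and miR-212, from the same transcript, 139 and 126 CPM.

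Among glial miRNAs the oligodendrocyte list had 3 of 3 measured members higher, by little, and miR-338 fell below 1 with total reads. miR-219b-3p, which promotes myelination, went from 9284 to 10506 CPM, a ratio of 1.13 (1.12 to 1.14), and miR-338 from 979 to 996 CPM. In iron piglets the same miR-219b-3p was 1.58-fold lower in dorsal, at 12604 and 7976 CPM. The astrocyte-enriched list was divided, 3 higher and 3 lower, from miR-29b at -0.41 to miR-26a at 0.21. Immune and microglial miRNAs other than miR-146b lay close to equal levels, with log2 ratios between -0.23 for miR-142-3p and 0.07 for miR-155-5p, while the abundant miR-21 measured 13879 and 12794 CPM. Family mir-223, of myeloid cells, was 1.71-fold lower (1.32 to 2.24), at 12.2 and 7.13 CPM. Like miR-190b, it reached the minimum of 10 CPM in control ventral only, so its direction was bound to be this one.

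Vascular miRNAs were higher in control dorsal and erythroid ones lower. The vascular list, with 2 arms each of miR-145, miR-143 and miR-126, had 6 of 6 above 1 with a median log2 ratio of 0.23, although miR-145-5p (0.06) fell just below 1 when rows were not merged. The endothelial miR-126-3p measured 4311 and 4815 CPM, a ratio of 1.12 (1.11 to 1.13), and miR-145-5p, from the transcript of miR-143, 494 and 515 CPM. In iron piglets 3 of these 6 were higher and 3 lower in dorsal. The erythroid list had 3 of 3 below 1 in controls and in iron piglets. Besides miR-144, miR-451 measured 671 CPM ventral and 579 CPM dorsal, and miR-486 48.4 and 46.2 CPM, a ratio whose interval (0.852 to 1.07) includes 1. miR-144 and miR-451 are cut from neighbouring precursors, so they are not separate observations.

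Several families made from shared transcripts or paralogous loci leaned to 1 side. The muscle list had 4 measured entries of 8, all higher, from miR-133a-3p at a log2 ratio of 0.24 to miR-1 at 0.84. The other 4 were below 10 CPM in every library and went both ways: miR-208b, miR-499-3p and miR-133b were at -1.02, -1.43 and -0.27 and miR-133a-5p at 0.58. The intervals of miR-208b (2.02-fold lower, 1.32 to 3.16) and miR-499-3p (2.69-fold lower, 1.58 to 4.77) exclude 1. In iron piglets 1 of the 4 measured muscle entries was higher in dorsal and 3 were lower. All 4 measured members of the miR-181 family were higher, with miR-181a going from 21852 to 26410 CPM and miR-181d-5p at a ratio of 1.33 (1.31 to 1.36), whereas all 4 were lower in iron dorsal, with a median log2 ratio of -0.31. miR-221-3p, known for control of the cell-cycle inhibitor p27, measured 4146 and 5598 CPM, a ratio of 1.35 (1.335 to 1.365), and miR-221-5p and miR-222 were higher too; all 3 were also higher in iron dorsal. The 2 measured miRNAs of the Hox clusters, miR-10b (384 and 471 CPM) and miR-10a-5p (10.4 and 14.1 CPM), were both higher, and in iron piglets 1 was higher and 1 lower. Of the imprinted DLK1-DIO3 locus, expressed from the maternal chromosome, 10 of 15 measured entries were higher, among them miR-127 with 10654 and 14364 CPM, and miR-136 was lowest at a log2 ratio of -0.455; in iron piglets 10 of the 15 entries were higher as well.

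In other families dorsal and ventral were level or mixed, except that most let-7 entries were slightly higher in dorsal. Members of the locus of miR-424, with 4 higher and 4 lower, had a median of -0.03. The let-7 list, miRNAs that mark differentiated cells, had 7 higher and 2 lower with a median of 0.14. It was led by let-7a with 20082 and 24673 CPM, though let-7g at 0.02 fell below 1 with total reads. In iron piglets 9 let-7 entries were higher in dorsal and 0 lower, with a median of 0.13. The miR-30 family had 3 higher and 7 lower, all between -0.20 and 0.115. For the miR-17 clusters, known for their part in proliferation, 8 were higher and 5 lower around a median of 0.01, with miR-363 lowest at 2188 and 1546 CPM. The miR-99 and miR-125 groups diverged although they share transcripts: miR-99b was higher, with 13833 and 19123 CPM, and miR-125a lower, with 3736 and 2841 CPM. Read counts of near-identical members could have been divided between rows, so single values within let-7, miR-30 and miR-181 are uncertain. The list of other brain miRNAs was assembled with its ratios known, so that its 5 of 5 lower in control dorsal carry no weight. It includes miR-335 with 4660 and 3567 CPM and both arms of miR-708, and in iron piglets 4 of the 5 were higher in dorsal.

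**Figure D3:**
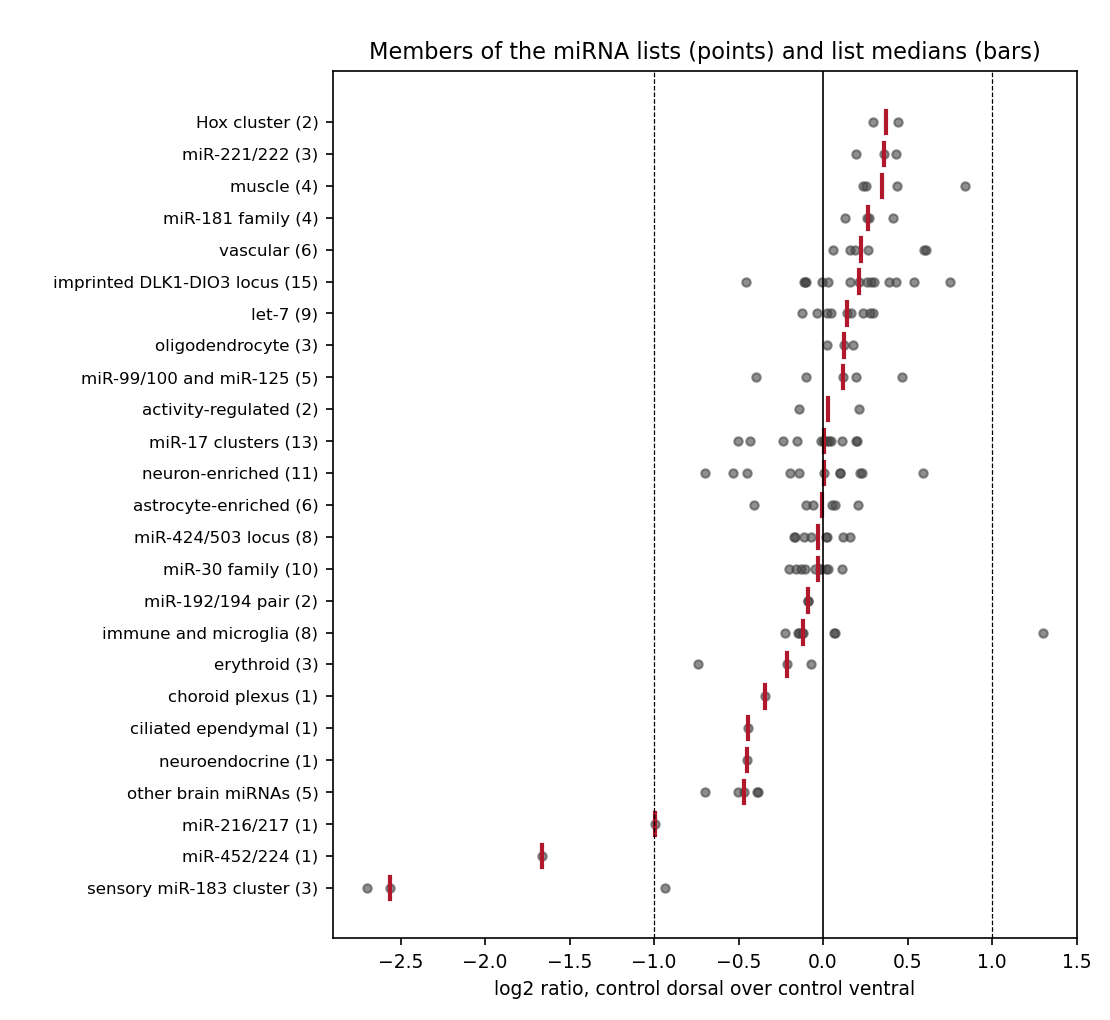
Log2 ratio of control dorsal over control ventral for measured members of 25 miRNA lists, with the number of measured entries in brackets. Points are miRNAs, red bars the list medians and dashed lines 2-fold. miR-183 and miR-96-5p of the sensory cluster and miR-452 lie past the left dashed line, miR-146b of the immune list past the right one, and most medians lie between -0.5 and 0.5.

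Shared precursors gave a check of the ratios that the counting of single rows does not. In 43 hairpins with both arms measured, the arms went in the same direction in 31, and the median distance between their log2 ratios was 0.10. Across these hairpins the log2 ratio of the minor arm followed that of the major arm at a Pearson correlation of 0.725 and a Spearman correlation of 0.63; hairpins share the 2 libraries and their scaling. miR-374a, miR-143, miR-148a and miR-221 had both arms higher, and miR-708 both lower. miR-148a-3p went from 5489 to 7954 CPM and its other arm from 101 to 138.5 CPM. The largest gap was in miR-129a, whose 5p arm was at a log2 ratio of 0.10 and its 3p arm at -0.53, with 184 and 127 CPM.

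**Figure D4:**
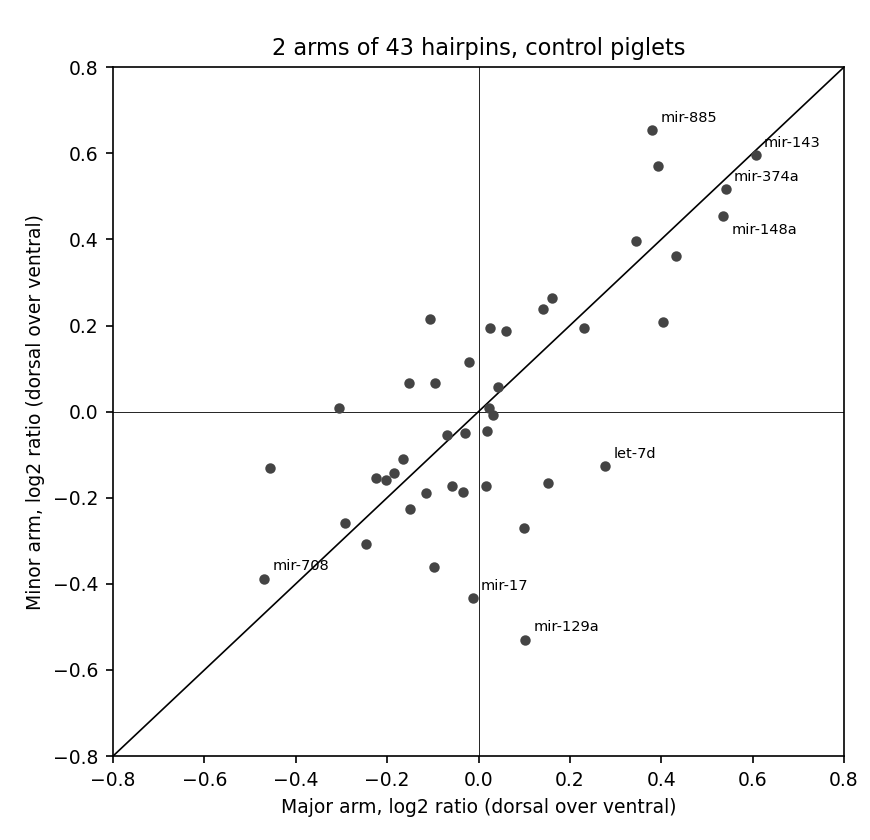
Log2 ratio of control dorsal over control ventral for the more abundant (x) and less abundant (y) arm of 43 hairpins. The diagonal marks equal ratios. Points follow it with Pearson's r of 0.725, and mir-129a lies farthest from it, below the line.

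Neighbouring precursors were examined in the same way. RefSeq gene entries of the pig assembly Sscrofa11.1, used only for which miRNA genes lie within 10 kb of each other, placed 71 measured miRNAs in 23 groups. All members went in 1 direction in 12 of these groups. How many would do so among unrelated miRNAs was not computed, and some groups count both arms of 1 hairpin. Besides the miR-183 cluster, the groups lower throughout were miR-144 with miR-451, miR-192 with miR-194a, and a set of miR-362, miR-500 and both arms of miR-532, of which miR-500 rose above 1 with the authors' RPM. miR-143 with miR-145, miR-195 with miR-497, miR-221 with miR-222 and miR-374b with miR-421-3p were higher throughout, except that miR-421-3p (0.03) fell below 1 with total reads. Also higher throughout were miR-99a with let-7c, miR-181c with miR-181d-5p, miR-23a with miR-27a and miR-24-1-5p, and miR-106a with miR-18b. Of these, miR-24-1-5p (0.010) and miR-106a (0.005) lay close to equal levels. miR-192 and miR-194a, of gut and liver epithelium, had equal log2 ratios of -0.09, but both intervals (0.844 to 1.047 and 0.837 to 1.057) include 1, and both were higher in iron dorsal, at ratios of 1.21 and 1.10. By seed, the 4 members of the miR-181 seed and the 3 of the miR-99 seed were all higher, and miR-125a and miR-125b, which share a seed, were both lower. Over 223 miRNAs with a sequence, the log2 ratio had a Spearman's rho of -0.181 with GC content and -0.109 with length.

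The conserved table was also summed by family. Of 188 measured families 1 (0.532%) was at least 2-fold higher in dorsal and 4 (2.13%) were at least 2-fold lower. The higher one was mir-146, with 501 and 1022 CPM, a ratio of 2.04 (1.98 to 2.10), and the lower ones were mir-8, mir-183, mir-96 and mir-452. The call on the higher side is lost with total reads, where 0 families were at least 2-fold higher. Family mir-8 had no counterpart in the calls on annotated miRNAs, and mir-1249, 1.98-fold lower (1.61 to 2.45), fell short of the size its annotated row had passed. Among well-expressed families the next were mir-182, mir-33, mir-153, mir-340 and mir-1. Of these 5, mir-33, which in mammals lies within SREBF genes and limits cholesterol export, had no counterpart in the calls on annotated miRNAs. It measured 203 CPM ventral and 112 CPM dorsal in controls, 1.81-fold lower (1.70 to 1.94), and 135 and 60.2 CPM in iron piglets. Family mir-33 thus shared with miR-217 the order of both ventral libraries above both dorsal ones.

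Predicted miRNAs, hairpins the authors inferred from reads and named by number, were scaled with the factors of the annotated table. Of 112 measured, 0 (0%) were at least 2-fold higher in dorsal and 8 (7.14%) were at least 2-fold lower. At 1.5-fold 0 were higher and 15 lower. Number 43 had 43.9 CPM in control ventral against 3.16 CPM in control dorsal, 3.16 CPM in iron ventral and 2.25 CPM in iron dorsal, 13.9-fold lower in control dorsal (10.05 to 19.7). Number 668 had 77.1 and 23.2 CPM in controls, 3.325-fold lower (2.92 to 3.80), and 29.1 and 16.25 CPM in the iron pair. Numbers 419, 333, 484, 46, 525 and 639 were lower by 2.25- to 7.52-fold. For all 8, control ventral was the highest of the 4 libraries, a rank that selection by the control ratio favours. Of these, 3 (numbers 43, 419 and 333) reached the minimum of 10 CPM in that library alone, so their direction is set by the filter. Of the 30 that reached 100 CPM 0 were called. The most abundant, number 467, measured 19798 and 14145 CPM in controls and 16159 and 23396 CPM in iron piglets.

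The control ratios were set beside those of the iron pair, which shares no library with the control pair but comes from the same litter. Of the 17 miRNAs at least 1.5-fold apart in controls, 10 lay on the same side of 1 in iron piglets and 7 on the other. Of the 5 past 2-fold, 0 were past 2-fold on the same side in iron piglets and 1, miR-452, was past it on the other side. Over all 251 miRNAs 117 lay on the same side and 134 on the other, so the direction in controls did not recur as a rule. miR-217 and miR-144 were lower in dorsal in both pairs, at ratios of 0.502 and 0.378 for miR-217 and 0.598 and 0.727 for miR-144. As miR-217 reached the minimum CPM in the ventral libraries only, the filter set its direction in both pairs. miR-183 had an iron ratio of 0.985, with an interval of 0.799 to 1.21 that includes 1. For miR-96-5p the iron ratio was 0.667 (0.512 to 0.863), so it was lower in dorsal in both pairs. Whether the region ratio differs between treatments was not tested, since 1 library a cell leaves 0 residual degrees of freedom.

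**Figure D5:**
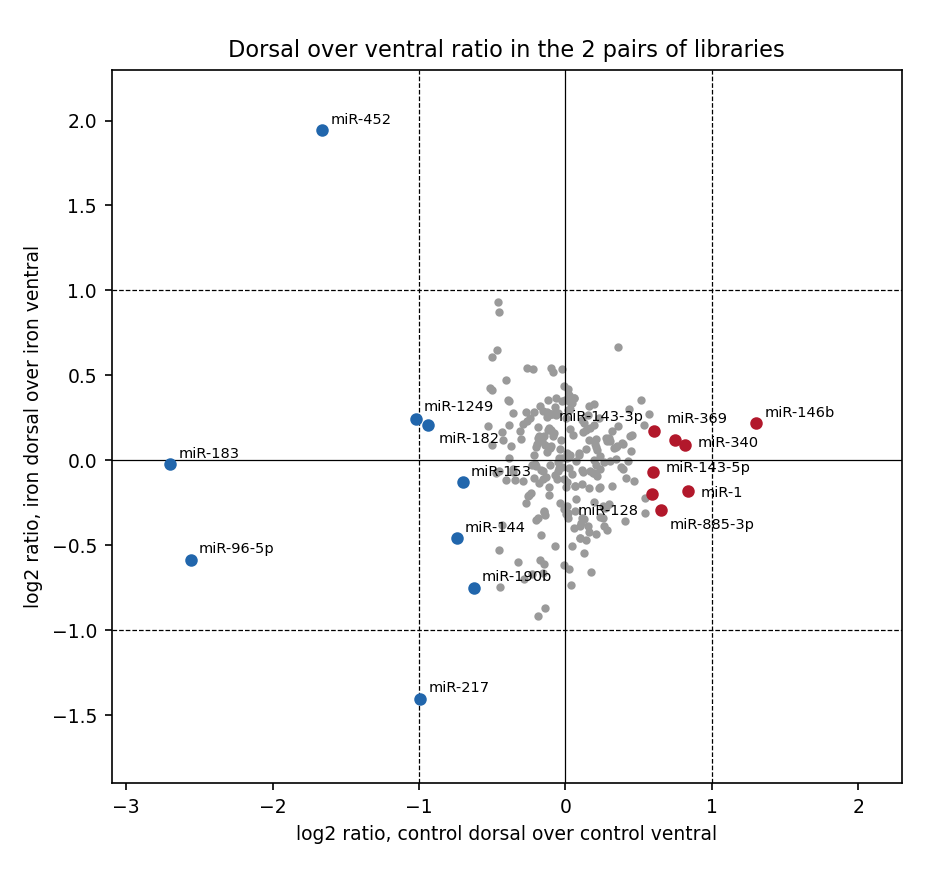
Log2 ratio of dorsal over ventral in control piglets (x) and in iron piglets (y) for 251 measured miRNAs. Red and blue points are those at least 1.5-fold higher or lower in control dorsal, and dashed lines mark 2-fold. miR-217 is low on both axes, miR-452 is low in controls and high in iron piglets, and miR-183 and miR-146b lie near 0 on the iron axis.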

How the data were processed

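Small RNA of 4 pooled hippocampus libraries was compared. The authors deposited 3 tables (326 annotated, 1052 predicted and 2791 conserved rows) with reads per library, per the file headers. Many values are fractions, so the deposited reads are estimated counts, and they were rounded to whole numbers. The table of annotated miRNAs also holds the authors' RPM, used as an alternative; 8 other RPM columns were not used. The trimming tool cutadapt 1.2.2 and the genome builds Sscrofa 10.2 and susScr 3 are listed in the submitters' processing notes. Not given in the sources used here are the aligner, the counting tool, how reads were divided between rows and which miRNA database was used.

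Rows of 1 precursor set with reads within 0.1% in every library (miR-9, miR-218 and miR-490) were merged, leaving 321 annotated miRNAs. Libraries held 11396809 to 13839556 such reads and were scaled with TMM (edgeR 4.0.16) over all 4; predicted rows and family sums took the same factors. Of the conserved rows 161 had no family and stayed out of family sums. The script for ratios was tested on simulated data. No test was run, as each side is 1 library. miRNAs named are those past 2-fold, the 10 highest and 10 lowest ratios at 100 CPM or more in a control library, the 10 most abundant, members of the lists described, up to 8 predicted miRNAs past 2-fold, families past 2-fold with the next 5, and other arms of named precursors. Names outside this rule, such as those between 1.5- and 2-fold, were chosen after their values were seen. The comparison and the 26 miRNA lists were chosen with earlier results of these data known. Alternatives were 4 other scalings, 3 other minimums and unmerged rows; size factors came from DESeq2 1.42.0. Mature sequences are those of the conserved table, and coordinates are not given.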

Additional observations from a re-analysis of the deposited data

Results flagged for a closer look

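Of the miRNAs at least 2-fold apart between the control libraries, 2 had the opposite direction in the iron pair with both counting intervals excluding 1. For miR-452 the log2 ratio of dorsal to ventral was higher by 3.61 in iron than in control piglets, and for its family in the conserved table, which counts the same molecules, by 3.615. For miR-1249 it was higher by 1.27. The iron ratio of miR-1249 was 1.18, with an interval of 1.01 to 1.39 that barely excludes 1. Its family in the conserved table had an iron ratio of 1.12, with an interval of 0.936 to 1.34 that includes 1. Each difference of log2 ratios compares 2 pairs of single libraries, so it was not tested.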

How the results depend on the processing

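The alternatives were run on control dorsal against control ventral. With total reads 5 annotated miRNAs were at least 1.5-fold higher in dorsal, as with unmerged rows (5), and 0 families were at least 2-fold higher. With a minimum of 100 CPM 4 annotated miRNAs were at least 1.5-fold and 1 at least 2-fold lower, with 1 family and 0 predicted miRNAs at least 2-fold lower, since fewer rows remain. Without a minimum, where rows of few reads enter, 16 annotated miRNAs were at least 1.5-fold lower, 2 were at least 2-fold higher and 9 lower, with 3 families higher and 10 lower and 8 predicted miRNAs higher and 27 lower. Total reads took miR-217 past 2-fold, unmerged rows took miR-217 and miR-182, and the authors' RPM left out miR-1249. The other counts lay within 1.5 times the reported ones. Of the 251 measured ratios 21 crossed 1 with total reads, 28 with unmerged rows, 10 with the authors' RPM and 5 with size factors. Among abundant miRNAs, miR-124a (0.976) and miR-30a-5p (0.987) did so with total reads and with unmerged rows (0.957 and 0.968), and miR-30e-5p (1.01) with RPM. Across the list medians of log2 ratios, those of the activity-regulated, miR-17 and neuron-enriched lists changed sign with total reads and with unmerged rows, the astrocyte list with size factors and RPM, and the miR-424 locus with RPM and a minimum of 100 CPM. Without a minimum the neuron-enriched median was -0.14, that of the neuroendocrine list -2.33, of miR-216 with miR-217 -0.57, of miR-452 with miR-224 -1.01 and of muscle 0.25. With a minimum of 100 CPM the medians were 0.55 for muscle, -0.48 for erythroid and -1.82 for the sensory cluster, and with unmerged rows 0.19 for muscle and 0.23 for the Hox cluster list. No paired analysis was possible because each group is 1 library. With 0 residual degrees of freedom, differences between piglets and between library preparations cannot be told apart from those between regions; depth limits only the scarce miRNAs.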

Other observations

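Some well-expressed miRNAs with large ratios belong to no list described above. On the lower side miR-504, which targets the p53 messenger RNA, measured 209 CPM in control ventral and 146.5 CPM in control dorsal, 1.43-fold lower (1.34 to 1.51), with 149 and 200.3 CPM in the iron pair. miR-4334-3p was 1.42-fold lower (1.34 to 1.495), at 240.1 and 170 CPM, and miR-7857-3p 1.37-fold lower (1.27 to 1.48), at 120.4 and 87.6 CPM. Of these 3, miR-7857-3p was the lowest of its 4 libraries in iron ventral, at 69.8 CPM, and highest in iron dorsal, at 133 CPM.

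The miR-374 family was higher in control dorsal in all 4 of its arms. miR-374a-5p went from 8617 to 12541 CPM, a ratio of 1.455 (1.445 to 1.47), and miR-374a-3p from 554 to 793 CPM, a ratio of 1.43 (1.39 to 1.47). miR-374b-5p was at 1.31 (1.28 to 1.35) and miR-374b-3p at 1.485 (1.38 to 1.60). In iron piglets the 3p arms of both precursors stayed above 1, at 1.28 and 1.21, while the 5p arms were below it, at 0.858 and 0.963.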
